A study of Mus musculus with 6 samples.

Results

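The 10 genes described here code for receptors, ligands and carriers of 3 growth factor systems, PDGF, FGF and IGF, and their CUT&Tag regions were followed in primary mouse cardiac fibroblasts. The receptors were Pdgfra, Pdgfrb, Fgfr1 and Igf1r, the ligands Pdgfa, Pdgfb, Fgf2 and Igf1, and the binding proteins Igfbp3 and Igfbp5. Every region that the deposited tables assign to one of these symbols was taken, whatever its signal. This gave 169 of 456310 regions over 4 comparisons, or 134 of 370722 distinct regions, since the same region can stand in a pair of tables.

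In CUT&Tag an antibody brings a transposase to its target on chromatin, and the DNA cut there is sequenced. The 6 libraries form a T set and an S set of 3 libraries each, named after the last letter of their titles. Each set holds 1 library labelled NC, 1 labelled TGF-b and 1 labelled TGF-b with an siRNA, named SiTAZ in the T set and SiSRF in the S set. The labels state no antibody. The study lists antibodies against TAZ, a co-activator that reaches DNA through TEAD factors, and SRF, a factor that binds the CArG box, so that T for TAZ and S for SRF is an inference. The text of the study describes siRNA against Piezo2 in these experiments, and the siRNA is therefore called the siRNA below. The design text of the series describes cells that lost Tet3 through a Cre virus before TGF-b, which no sample label repeats, and whether these 6 libraries carry that deletion was not settled. The labels give neither strain nor age, and NC is not spelled out. With 1 library per group there was no replicate and no test across libraries, and the intervals given below cover counting error only.

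PDGF receptors alpha and beta are receptor tyrosine kinases of mesenchymal cells, and Pdgfra is a widely used marker of cardiac fibroblasts whereas Pdgfrb also marks pericytes. PDGF-A and PDGF-B chains form the dimers that activate them. FGF2 is a heparin-bound mitogen that signals through FGFR1, and IGF1 signals through the IGF1 receptor while IGF-binding proteins hold it in the extracellular fluid. All these receptors feed the MAPK and PI3K cascades that drive fibroblast growth and survival.

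Of the labelled cell type, defining fibroblast genes had a region within 3 kb of a start in 7, 5, 2 and 1 of 9 cases in the 4 comparisons, in the order T set TGF-b over NC, T set siRNA over TGF-b, S set TGF-b over NC and S set siRNA over TGF-b. Cardiomyocyte markers had one in 4, 3, 3 and 2 of 5, endothelial markers in 3, 3, 1 and 1 of 5, immune markers in 1, 2, 1 and 1 of 3, and smooth muscle and pericyte markers in 3, 0, 2 and 2 of 3. A region records association with chromatin, not a transcript, so these counts do not establish the cell type. Depth was low. The median region of the 10 genes held 12 reads in NC and 7 in TGF-b in the first T comparison, and 6.5 in TGF-b and 10 with the siRNA in the second. For the S set they were 6.5 and 4.5 in the first comparison and 9 and 10 in the second. A library held 3 reads or fewer in 21 of 70, 28 of 74, 6 of 12 and 3 of 13 of these regions, or 30%, 37.8%, 50% and 23.1%, against 49.3%, 57.9%, 27.5% and 26.8% of all regions. The members were thus deeper than all regions in the T set and shallower in the first S comparison, and the part of depth in the shares below was not tested.

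The 250 bases before the RefSeq starts of Igfbp5 and Igfbp3 are shown because the T set had a region 90 and 34 bp from the annotated start. Other members with a matched sequence also had a T set region near a start, among them Pdgfra (126 bp) and Pdgfa (167 bp). The choice therefore does not set these 2 genes apart. Igfbp5 carries IGFs in the matrix, and Igfbp3 is the main IGF carrier of serum. The sequences come from RefSeq (GRCm38.p6), on the minus strand, at chr1:72874866-72875115 for Igfbp5 and at chr11:7213924-7214173 for Igfbp3. Capitals mark a match to the TEAD core GGAATG, read here on the opposite strand as CATTCC.
Igfbp5: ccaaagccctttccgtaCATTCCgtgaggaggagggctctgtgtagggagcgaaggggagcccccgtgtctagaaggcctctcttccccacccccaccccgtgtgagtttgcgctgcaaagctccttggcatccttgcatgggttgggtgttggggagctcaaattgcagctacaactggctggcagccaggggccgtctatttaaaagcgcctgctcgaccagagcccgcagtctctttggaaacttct
Igfbp3: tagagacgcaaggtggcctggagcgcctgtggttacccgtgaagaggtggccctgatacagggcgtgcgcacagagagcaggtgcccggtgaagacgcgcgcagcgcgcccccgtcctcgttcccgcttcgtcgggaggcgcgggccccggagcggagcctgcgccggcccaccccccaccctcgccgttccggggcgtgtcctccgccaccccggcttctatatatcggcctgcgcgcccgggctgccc
The match in Igfbp5 lay 233 to 228 bases before the start. It was the only TEAD core in the promoters of the 7 members that RefSeq sequences were matched to, searched on both strands, and 12.6% of 32851 promoters of that length hold one. The AP-1 letters TGANTCA stand in 6.75% of promoters, and among the members they stand in Igf1 alone, as TGAATCA, 37 to 31 bases before its RefSeq start. A CArG box, present in 1.47% of promoters, was found in none of the 7. These are matches of letters in a short window and not measured sites. GC content was 58.8% for Igfbp5 and 73.2% for Igfbp3, against a median of 52.4% over all promoters.

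Most regions of the 10 genes lay in introns, in shares near those of all regions. Introns held 78.6% and 77.0% of the member regions in the T comparisons and 75% and 69.2% in the S comparisons, against 74.6%, 75.2%, 72.2% and 67.6% of all regions assigned to a gene. Igf1r, the longest member with a transcript of 280.842 kb, held 30 of 70 and 37 of 74 T regions, and 5 of 12 and 4 of 13 S regions. The 617 genes of 200 to 400 kb held a median of 15 and 16 T regions, with upper quartiles of 23 and 23, so that Igf1r stood above the upper quartile for genes of its length in the T set. Its S set regions numbered 5 and 4 against medians of 4 and 4. Positions below are those of the files, in GRCm39, and a distance is counted by the authors from the middle of a region to the transcription start site (TSS) they chose. Some regions lie inside another gene: 9 and 8 of the Fgf2 regions in the T comparisons were annotated to Gm43439, 2 and 3 of Pdgfa to Prkar1b, and 2 of Pdgfra, in the second comparison, to Gm19583.

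The first question of the design is how association changed when the cells received TGF-b, the cytokine that turns fibroblasts into myofibroblasts. In the T set, 11 of 70 member regions (15.7%, 95% Wilson interval 9.01 to 26.0) were higher by at least 2-fold with TGF-b, against 17.3% of all regions. At least 2-fold lower were 19 of 70 (27.1%, 18.1 to 38.5), against 42.1% of all regions. The median log2 ratio was -0.25 (interval -0.65 to 0.16), against -0.65 over all regions. The share of higher member regions was near the background and the share of lower ones below it. Over regions with at least 10 reads in 1 library the lower share was 34.1% (21.9 to 48.9), without Igf1r 32.5% (20.1 to 48.0), with 1 region per 2 kb 29.6% (19.1 to 42.8) and with 3 reads taken as the lowest count 21.4% (13.4 to 32.4). These intervals include the shares of all regions under the same setting, 45.8%, 42.1%, 42.3% and 28.5%. The interval counts regions as independent, and neighbouring regions that share reads are not. In the second T comparison, 32 of 74 (43.2%, 32.6 to 54.6) were at least 2-fold higher with the siRNA than in TGF-b alone, against 49.7% of all regions, and 10 of 74 (13.5%, 7.51 to 23.1) at least 2-fold lower, against 16.2%. The median was 0.85 (0.45 to 1.14), against 0.97 over all regions. All 3 values were near the background. Of the counting intervals of single T regions, 10 lay above 0 and 18 below it in the first comparison and 29 and 11 in the second. Relative to the median of all regions they were 19 and 9, then 14 and 20, so whether an interval in the T set includes 0 depends on the scaling for many regions. These counts are of member regions only and are not set against the background.

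In the S set, 2 of 12 member regions (16.7%, 4.70 to 44.8) were at least 2-fold higher in TGF-b, against 17.4% of all regions, and 7 of 12 (58.3%, 32.0 to 80.7) were at least 2-fold lower, against 26.7%. The median was -1.23 (-3.22 to -0.18), against -0.20 over all regions, and without Igf1r it was -0.20 as well (-3.32 to 3.17). Of the 7 lower regions, 4 were in introns of Igf1r, and over regions with at least 10 reads in 1 of the 2 libraries the share was 1 of 5 (20%, 3.62 to 62.4), against 21.9% of all such regions, with a median of -0.20 against 0.06. Without the line of the authors it was 33.3% (13.8 to 60.9), against 15.3%, and the median was -0.63. All 7 were called as peaks in NC alone, as were 9 of the 12 member regions (75%, against 50.9% of all regions), and a region that enters a table through 1 library tends to be higher there. With the siRNA, 5 of 13 (38.5%, 17.7 to 64.5) were at least 2-fold higher, against 15.1% of all regions, and 2 of 13 (15.4%, 4.33 to 42.2) at least 2-fold lower, against 27.8%. The median was 0.48 (-0.63 to 1.49), against -0.21 over all regions, and 0.10 (-1.36 to 0.77) without Igf1r. Of the 5 higher regions, 4 were again in Igf1r, and without that gene the share was 11.1%, against 15.1%.

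**Figure D1:**
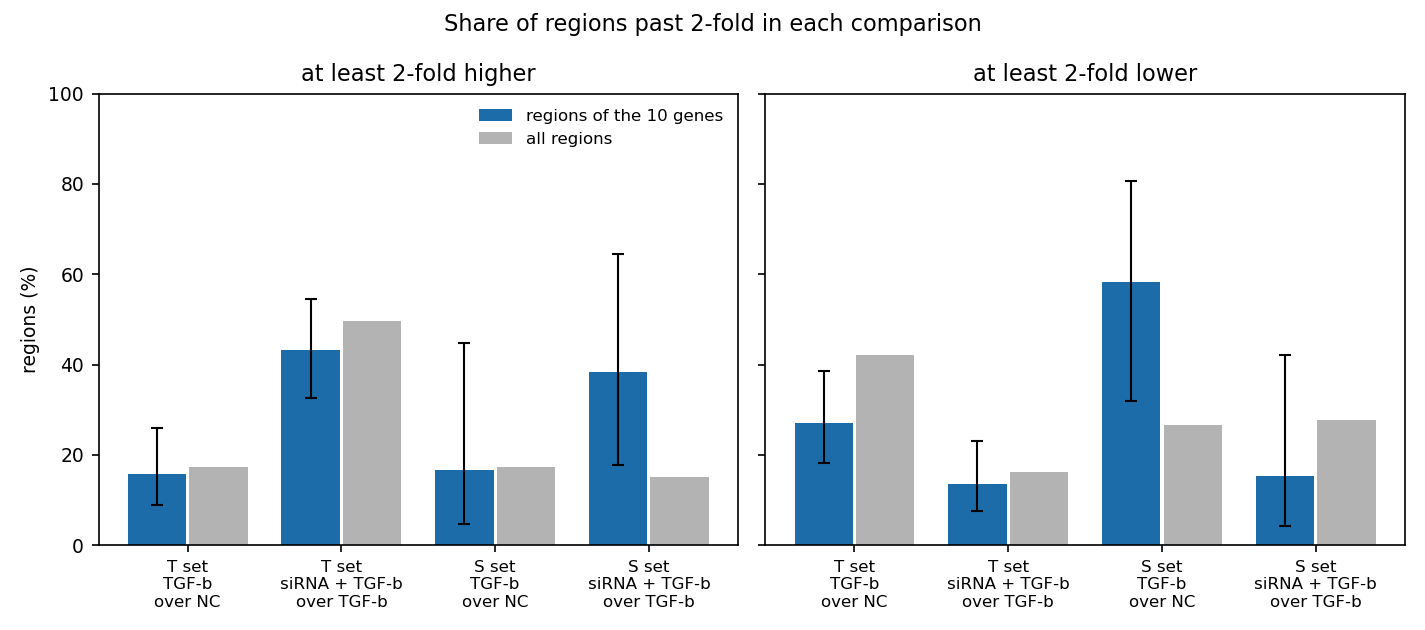
Percent of regions at least 2-fold higher (left) or lower (right) in each comparison, for the regions of the 10 genes (blue, with 95% Wilson intervals over regions) and for all regions (grey). In the T set the blue bars for lower regions sit below the grey bars, 27.1% against 42.1% in the first comparison, and in the S set the blue bar for lower regions in TGF-b stands at 58.3% against 26.7%.

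**Figure D2:**
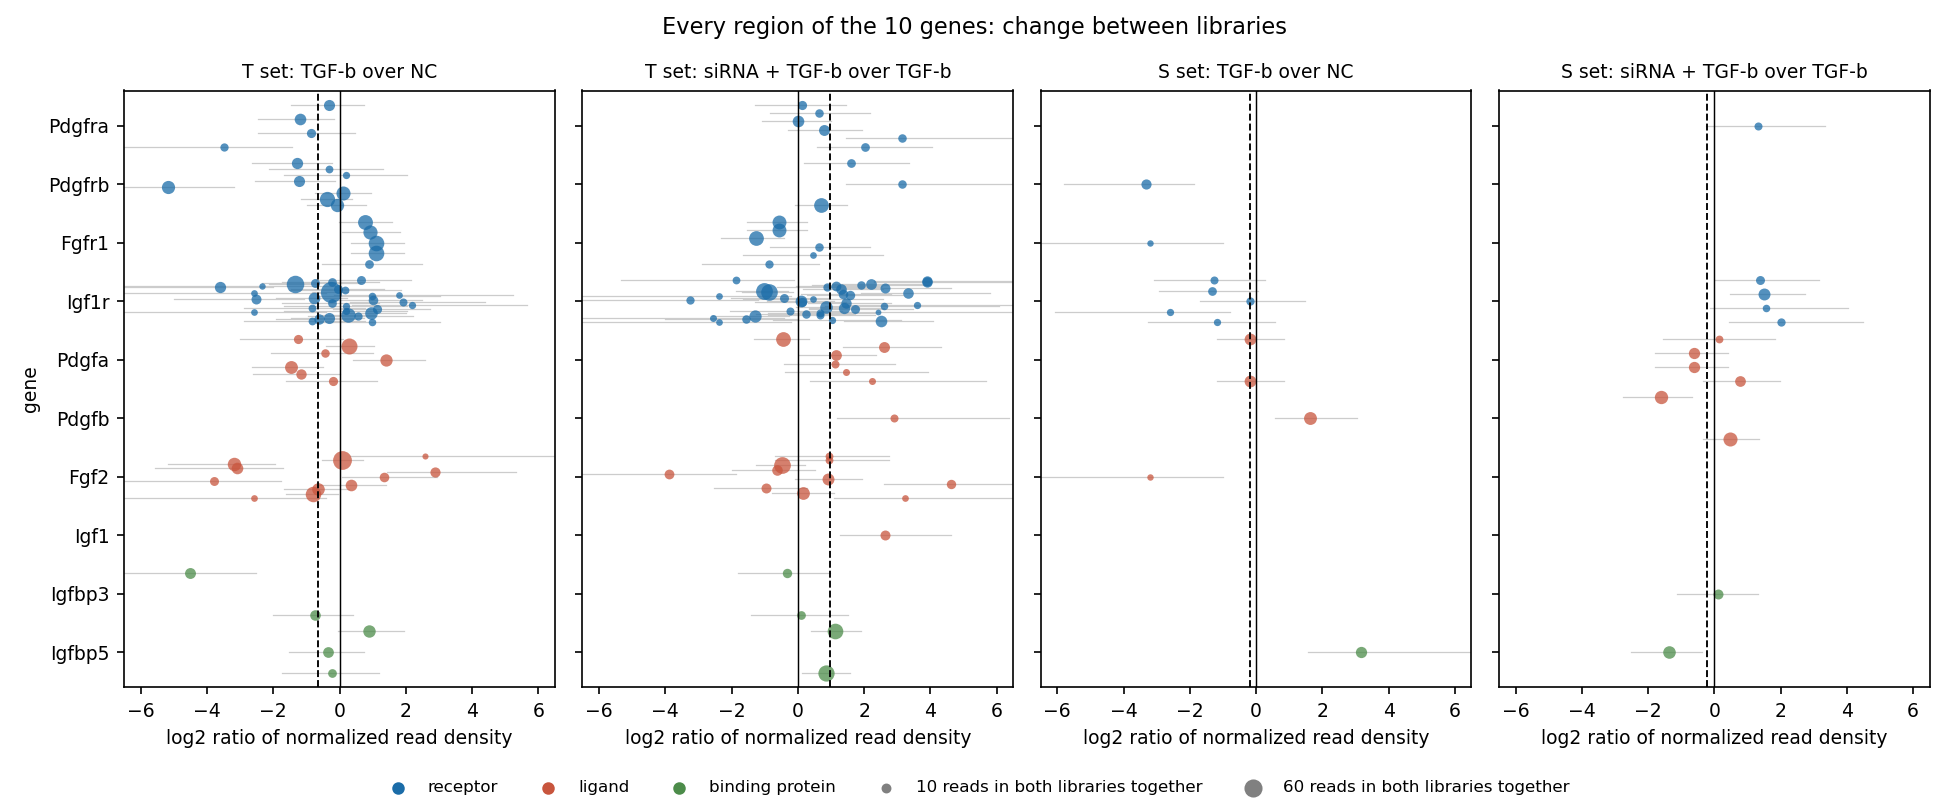
Log2 ratio of normalized read density for every region of the 10 genes (rows), 1 panel per comparison, with 95% counting intervals as grey lines cut at the axis ends and point size growing with the reads of both libraries. The dashed line is the median of all regions. All 5 Fgfr1 points of the first panel lie to the right of 0 and all 4 Pdgfra points to its left.

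The receptors differed in sign in the T set. All 5 Fgfr1 regions had positive ratios for TGF-b over NC, from 0.75 to 1.10, with 2 regions past 2-fold. As deposited, 3 of 5 intervals lay above 0. The 2 regions past 2-fold held the same 18 and 39 reads and are among those 3. In contrast, all 4 Pdgfra regions and 6 of 8 Pdgfrb regions had negative ratios. Regions at 26011341 and 26011810 in Fgfr1 have overlapping 2 kb windows. So do those at 75344894, 75345755 and 75346430 in Pdgfra, and such regions are not separate observations. With the siRNA, 4 of 6 Fgfr1 regions had negative ratios, and 5 of 6 Pdgfra and 3 of 3 Pdgfrb regions positive ones. The median of all regions was itself shifted, to -0.65 and 0.97. Relative to that shift all 5 Fgfr1 regions stayed positive in the first comparison and all 6 were negative in the second, but only 3 of 4 Pdgfra and 3 of 8 Pdgfrb regions were negative in the first, and 2 of 6 and 2 of 3 positive in the second. The sign of Fgfr1 in the first comparison was thus the same under both scalings. In the second, its 2 promoter regions turned from positive to negative when centred, 2 of the 4 negative regions held the same 30 and 14 reads, and 1 of 6 intervals was off 0 as deposited. The signs of the PDGF receptors depended on the scaling in both comparisons. The Pdgfra signs also followed the library in which a region was called. All 4 Pdgfra regions of the first table were called in NC alone, against 68.9% of all regions. All 6 of the second were called with the siRNA alone, against 70.5% of all regions. Of the Pdgfrb regions of the first table, 6 of 8 were called in NC alone, but their signs did not follow the call. Those at 61180883 and 61205019 were called in TGF-b alone and had negative ratios. Those at 61181272 and 61204420 were called in NC alone and had positive ones.

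Fgfr1, on chromosome 8, is the FGF receptor whose mesenchymal isoform binds FGF2. Its deepest region was in intron 3 of 3 of transcript ENSMUST00000155564, at chr8:26027285-26027506 and 5098 bp from a TSS. It had 18 NC, 39 TGF-b and 11 siRNA library reads. The first table gives it normalized densities of 9.42 and 20.2 for NC and TGF-b. The second gives 16.99 for TGF-b and 7.06 with the siRNA, since each table carries its own scaling. The log2 ratio was 1.10 (0.35 to 1.94) for TGF-b over NC and -1.27 (-2.30 to -0.41) for the siRNA over TGF-b, and neither interval includes 0. A region called separately at 26027605 held the same 18 and 39 reads in the first comparison, because neighbouring windows share reads, and is no second observation. Nearer a start, 1523 bp from it, the region at 26011341 held 19 and 32 reads in the first comparison, a ratio of 0.75 (-0.02 to 1.59) that was 1.41 (0.63 to 2.24) when centred on all regions, and shares reads with its neighbours. In intron 2 of that transcript the region at 26011810 held 16, 30 and 14 reads, with ratios of 0.91 (0.09 to 1.81) and -0.58 (-1.53 to 0.27), the second -1.55 (-2.50 to -0.70) when centred. The exon region at 26063512 went from 5 to 9 and then 3 reads. The 2 promoter regions of the second table, 823 and 5 bp from a TSS, held 6 and 7 reads and 3 and 3 reads. Fgfr1 had 1 S set region, with 5 reads in NC and 0 in TGF-b, and the counting interval of its log2 ratio ended at -1.01. Below, "at least" marks a fold with 0 set to 3 reads, the upper limit that a count of 0 allows, and does not carry the counting error of the other library. Such a fold is that of the deposited scaling.

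Pdgfra had its 4 regions of the first T comparison in introns, 22445 to 26183 bp from a TSS. The log2 ratios ran from -3.49 to -0.33. All 4 were called in NC alone. The region at chr5:75348634-75348723 held 12 reads in NC and 0 in TGF-b, at least 2.81-fold lower. Its interval ended at -1.43 as deposited and at -0.78 relative to all regions. The region at 75345755 held 21 and 8, with a ratio of -1.20 (-2.45 to -0.16), or -0.55 (-1.80 to 0.49) relative to all regions. In the second comparison the region 126 bp before the start of transcript ENSMUST00000168162 held 17 reads in TGF-b and 12 with the siRNA, a ratio of 0.00 (-1.08 to 1.01). The only Pdgfra region present in both comparisons, at 75344894, held 15, 11 and 14 reads and showed no ordering beyond counting error. An exon region at 75349732 went from 1 to 12 reads, a log2 ratio of 3.15 (1.45 to 6.62), and a 3' UTR region at 75358524 from 3 to 11, a ratio of 2.04 (0.59 to 4.06) that was 1.07 (-0.38 to 3.09) when centred. Both were called with the siRNA alone. The only S set region, in an intron, held 3 and 8 reads.

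Pdgfrb, on chromosome 18, had the most NC reads of any member region that held none in TGF-b. This region in intron 1 of 22 at chr18:61190450-61190567, 12236 bp from a TSS, had 39 NC reads and 0 in TGF-b, at least 8.96-fold lower. It was called in NC alone, and its interval ended at -3.18 as deposited and at -2.53 relative to all regions. The region 1226 bp before a TSS held 20 and 7 reads, with a ratio of -1.30 (-2.63 to -0.21), and an intron region at 61188466 held 19 and 7, a ratio of -1.23 (-2.56 to -0.13). Relative to all regions these were -0.65 (-1.97 to 0.44) and -0.57 (-1.91 to 0.52), and both intervals then included 0. In the middle of the gene, from intron 10 to exon 12, the change was within counting error: 22 and 23 reads at 61204420, 31 and 23 at 61205019, and 21 and 19 at 61205760. With the siRNA the region at 61205019 held 27 reads, a ratio of 0.70 (-0.09 to 1.497) over TGF-b, and the region at 61180883 went from 6 in NC to 4 in TGF-b and 10 with the siRNA. The single S set region, at chr18:61180775-61180852 in the same intron 1, held 19 NC reads and 2 in TGF-b, and the ratio was -3.32 (-5.79 to -1.89). It was called in NC alone.

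Igf1r spread in both directions. In the T set 5 of its 30 regions were at least 2-fold higher and 6 at least 2-fold lower in TGF-b, against 17.3% and 42.1% of all regions, with a median log2 ratio of -0.13. With the siRNA 18 of 37 were higher and 8 lower, against 49.7% and 16.2%, with a median of 0.87. Its deepest region lay in intron 2 of 20 at chr7:67671541-67671776, 69083 bp from the start, with 59 reads in NC, 50 in TGF-b and 17 with the siRNA. Its density was 30.4 and 25.2 in the first table and 21.6 and 10.6 in the second. The change with TGF-b was within counting error, at -0.27 (-0.82 to 0.26), and the change with the siRNA was -1.03 (-1.87 to -0.30). The neighbouring region at 67672212, which shares reads with it, held 47 and 18. In intron 1 the region at 67618236 held 53 reads in NC and 20 in TGF-b, a ratio of -1.36 (-2.13 to -0.66), and the region at 67636026 held 26 and 1, a ratio of -3.61 (-7.10 to -2.01).

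Of the 37 regions, 23 were called in the siRNA library alone, as were 70.5% of all regions. A region that enters the table in that way is chosen for being high there, so its gain is a description. The median ratio was 1.62 over all regions so called and 1.14 over the 48 member regions. Of these 48, 26 were at least 2-fold higher and 0 lower. Among them in Igf1r, at 67680760 the reads went from 2 to 21, a log2 ratio of 3.33 (1.91 to 5.79), at 67644290 from 3 to 17, a ratio of 2.63 (1.28 to 4.63), and at 67857915 from 5 to 24, a ratio of 2.52 (1.38 to 4.07). A pair of neighbouring regions at 67609867 and 67610217 shared the same 1 and 21 reads. The region nearest a TSS, at 67844147, lay 161 bp before the start of ENSMUST00000208348, a transcript inside the gene. It had 15 NC, 11 TGF-b and 2 siRNA library reads, with a ratio of -1.55 (-4.02 to 0.00) for the last step. In the T set the region nearest the start of the longest transcript, 2420 bp from it at 67604918, had 6, 9 and 1 reads. Gains and losses thus lay side by side in the same gene. All 5 S set regions had negative ratios in TGF-b, from -2.61 to -0.18, and were called in NC. The lowest, at 67800118 and 1817 bp from a TSS, held 7 and 1 reads. All 4 of the second S comparison were at least 2-fold higher with the siRNA, with ratios from 1.38 to 2.01, and were called in the siRNA library alone. Both signs therefore follow the library in which the regions were called. No Igf1r region stood in both S tables, so these are different places in the gene.

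**Figure D3:**
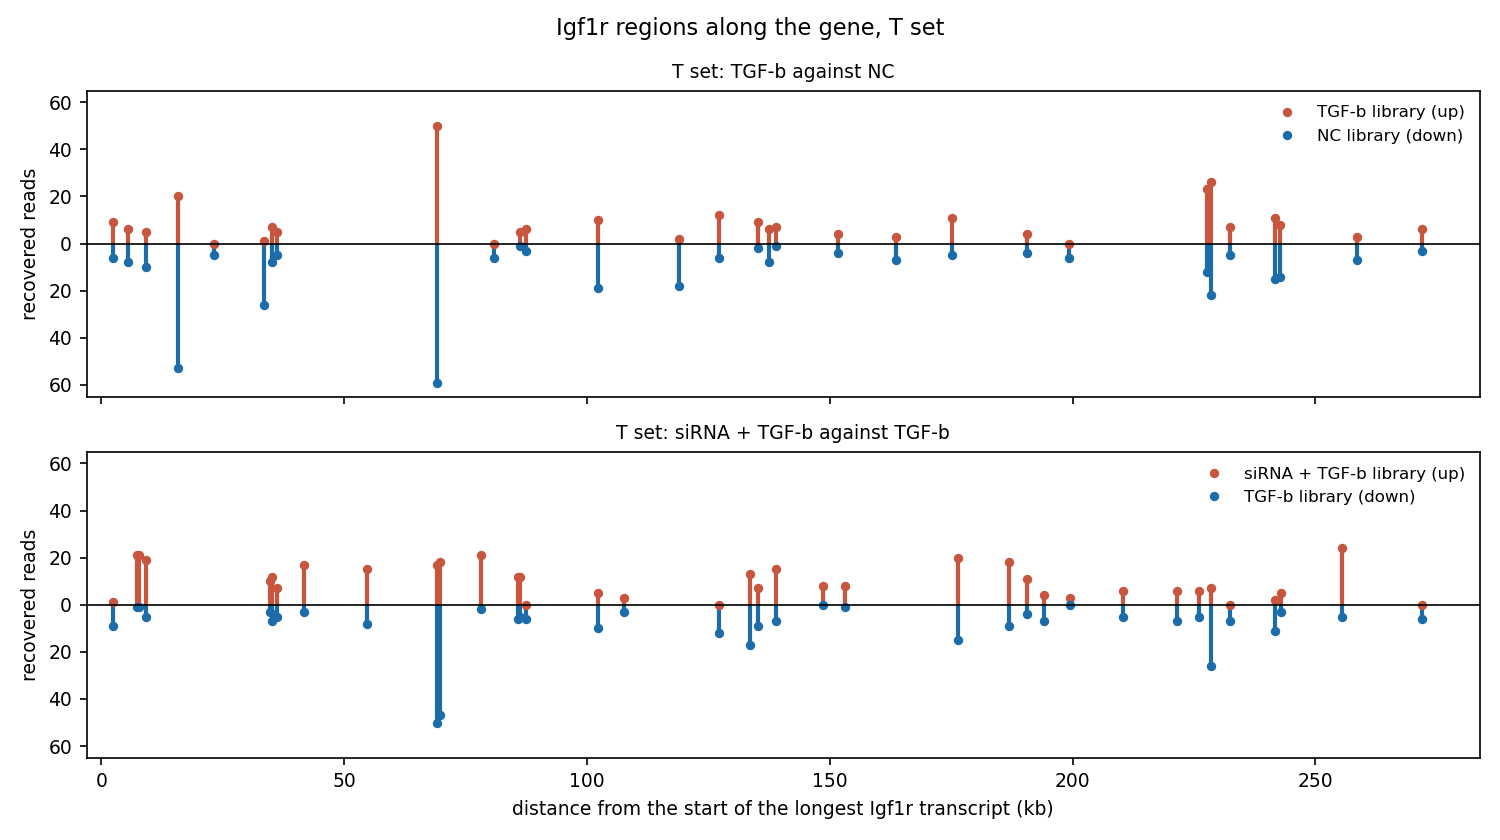
Recovered reads of each Igf1r region of the T set against its distance in kb from the start of the longest transcript, with the later library of each comparison drawn upward and the earlier one downward. The bar near 69 kb is deepest in NC and TGF-b, at 59 and 50 reads, and shorter with the siRNA, at 17 reads, while several bars of about 20 reads with the siRNA stand where TGF-b had 5 reads or fewer.

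Among the ligands, Pdgfa, which codes for the PDGF-A chain, had 7 T regions in the first comparison. Beside its start, 167 bp inside the 5' UTR at chr5:138981642-138981709, it held 9 reads in NC and 24 in TGF-b, with densities of 4.87 and 12.8 and a log2 ratio of 1.40 (0.41 to 2.57). That region did not stand in the second table. The region at 139000934, 17879 bp upstream and annotated as downstream of a gene by 2 to 3 kb, went the other way, with 28 reads in NC, 9 in TGF-b and 15 with the siRNA. Its ratios were -1.47 (-2.63 to -0.51) and 1.14 (0.04 to 2.36), and it was the only member region that was at least 2-fold lower and then at least 2-fold higher. Relative to all regions the ratios were -0.81 (-1.98 to 0.14) and 0.17 (-0.93 to 1.39), neither of them past 2-fold or with an interval off 0. The intron region at 138965778 held 27, 33 and 17 reads, and both intervals included 0. Relative to all regions its ratios were 0.95 (0.23 to 1.68) and -1.42 (-2.29 to -0.62). With the siRNA, 5 of 6 Pdgfa regions were at least 2-fold higher, against 49.7% of all regions, with 3 of 6 intervals above 0 as deposited. Of the 6, 3 lie in introns of Prkar1b and 5 were called in the siRNA library alone. The largest reads with the siRNA were those of an intron region at 138976186 with 4 and 21 reads, a ratio of 2.60 (1.37 to 4.33).

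Pdgfb, which codes for the PDGF-B chain, had no T region in the first comparison. In the second it had 1, 488 bp before a TSS, with 1 read in TGF-b and 10 with the siRNA, a log2 ratio of 2.91 (1.17 to 6.37). Its S set signal was higher in TGF-b and lower again with the siRNA, with both intervals off 0. The region was called in TGF-b alone in both tables, so that it was chosen for being high in that library and the course is a description. The 5' UTR region at chr15:79898183-79898337, 749 bp from a TSS, had 6, 31 and 9 reads in the order NC, TGF-b and siRNA. The ratios were 1.63 (0.58 to 3.03) and -1.61 (-2.76 to -0.67), and the densities were 4.25 and 13.2 in the first table and 15.6 and 5.12 in the second. The promoter region at 79899802, 678 bp before another TSS of the gene, did not follow it, with 19 reads in TGF-b and 26 with the siRNA, a ratio of 0.48 (-0.34 to 1.35).

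Fgf2, the ligand of Fgfr1, had 11 and 10 T regions. In the first comparison 3 were at least 2-fold higher and 4 at least 2-fold lower, against 17.3% and 42.1% of all regions. The deepest, at chr3:37395828-37396125 in an intron of Gm43439, had 41 NC, 44 TGF-b and 22 siRNA library reads, with ratios of 0.08 (-0.52 to 0.70) and -0.49 (-1.25 to 0.21), whose intervals include 0. Relative to all regions they were 0.74 (0.13 to 1.35) and -1.46 (-2.22 to -0.76). Regions nearby at 37397331 and 37398396 held 38 and 27 reads in NC and 3 and 2 in TGF-b, with ratios of -3.19 (-5.18 to -1.95) and -3.10 (-5.56 to -1.70). Both were called in NC alone, and their 2 kb windows overlap, so they are not separate observations. At 37419385 the order was reversed, with 2 reads in NC, 19 in TGF-b and 0 with the siRNA. The ratio was 2.88 (1.44 to 5.34) for the first step, and the second step was at least 3.67-fold lower. At 37430263 TGF-b had 0 reads and the siRNA library 17, at least 6.13-fold higher. That region was called in the siRNA library alone. The promoter region at 37434224, 636 bp before a TSS, held 13 and 16 reads in NC and TGF-b, and the one at 37400887, 1575 bp before a TSS, held 16 in TGF-b and 7 with the siRNA, a ratio of -0.63 (-1.97 to 0.51), or -1.60 (-2.94 to -0.46) when centred. The only S set region of Fgf2 held 5 reads in NC and 0 in TGF-b, and its interval also ended at -1.01.

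Igf1, the ligand of Igf1r, had 1 region in the 4 tables. It lay in an intron, 641 bp from the start of transcript ENSMUST00000122100, at chr10:87697709-87697956, and held 3 reads in TGF-b and 17 with the siRNA in the T set, with densities of 1.71 and 10.5 and a log2 ratio of 2.63 (1.28 to 4.63). The NC library of that set has no value there, as the region is not in the first table. At a threshold of 2-fold, 49.7% of all regions in that comparison were higher as well.

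The binding proteins had few regions. Igfbp3 had a region in its 5' UTR, 34 bp from the start whose upstream sequence is printed above, with 15 reads in NC, 8 in TGF-b and 6 with the siRNA, and ratios of -0.73 (-2.01 to 0.40) and 0.09 (-1.42 to 1.504). An exon region 461 bp from the start held 11 reads in TGF-b and 6 with the siRNA, and an S set region 850 bp from it held 10 and 10. Its intron region at chr11:7160522-7160683 held 25 reads in NC and 0 in TGF-b, at least 5.74-fold lower. That region was called in NC alone, and its interval ended at -2.52 as deposited and at -1.87 relative to all regions. Igfbp5 had 1 region 90 bp before its start, with 14 and 10 reads in NC and TGF-b and a ratio of -0.35 (-1.53 to 0.75), and 1 further upstream with 8 and 6 reads. Both promoter regions were called in NC alone and neither stood in the second table, where the nearest region, 3897 bp from the start, held 27 reads in TGF-b and 35 with the siRNA, a ratio of 0.84 (0.13 to 1.57) that was -0.13 (-0.84 to 0.60) when centred.

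In intron 1 of 3 of Igfbp5 a T and an S region overlapped in both comparisons. In the T set, at chr1:72909508-72909753 and 4413 bp from the start, it had 12 NC, 22 TGF-b and 35 siRNA library reads, with ratios of 0.89 (-0.05 to 1.94) and 1.12 (0.38 to 1.90). In the S set, at 72909412-72909605, it held 1 read in NC, 26 in TGF-b and 9 with the siRNA, with ratios of 3.17 (1.57 to 6.65) and -1.36 (-2.53 to -0.39). For TGF-b over NC both ratios were positive, and the T set interval included 0 as deposited but not relative to all regions, at 1.54 (0.60 to 2.59). With the siRNA the ratios had opposite signs. The S region was called in TGF-b alone in both tables, and the T region in TGF-b alone in the first and in both libraries in the second. The densities were 6.35 and 11.8, then 9.76 and 21.2, in the T set tables, and 1.23 and 11.005, then 13.2 and 5.13, in the S set tables. Relative to the median of all regions the T set ratio with the siRNA was 0.15 (-0.59 to 0.93).

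T and S regions of the 10 genes overlapped in shares near those of all regions. Of 113 distinct T regions 5 (4.42%) overlapped an S region by at least 1 bp, and of 21 S regions 5 (23.8%) overlapped a T region, against 4.70% of all 292385 T regions and 17.3% of all 78371 S regions. The members' numbers were the same at an overlap of 50%. The overlaps were in Fgf2, Igfbp5, Pdgfa and Igf1r. At the Fgf2 site the T set held 41 and 44 reads in NC and TGF-b and the S set 5 and 0. At the Igf1r site in intron 2 the T set held 50 and 17 reads in TGF-b and with the siRNA and the S set 8 and 23, so the direction was opposite. The T region was called there in TGF-b alone and the S region in the siRNA library alone. The Pdgfa site held 28 and 9 reads in the T set and 13 and 17 in the S set in NC and TGF-b, with ratios of -1.47 (-2.63 to -0.51) and -0.20 (-1.19 to 0.85).

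The second question is whether a change with TGF-b was reversed with the siRNA, which can be followed where a region stands in both tables of a set. In the T set 31 member regions of 8 genes did so. In the first step 8 (25.8%) were at least 2-fold higher, against 46.7% of all such regions, and 3 of the 31 (9.68%) were then at least 2-fold lower, against 27.3% of all 58623 such regions. The 3 were the Fgfr1 intron region at 26027285, the Fgf2 intron region at 37419385 and an Igf1r intron region at 67729631 with 6, 12 and 0 reads. The Fgfr1 region was called in both libraries of each table, and the other 2 in TGF-b alone. The difference from all regions was not tested. In the S set 4 member regions stood in both tables, and 2 (50%) were higher and then lower, against 22.1% of all 26931 such regions. They were the Igfbp5 intron region and the Pdgfb 5' UTR region, both called in TGF-b alone. The other 2 were neighbouring regions downstream of Pdgfa with the same 13, 17 and 10 reads. Both comparisons of a set share the TGF-b library, so that a high count in it raises the first ratio and lowers the second, for the members and for all regions alike.

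**Figure D4:**
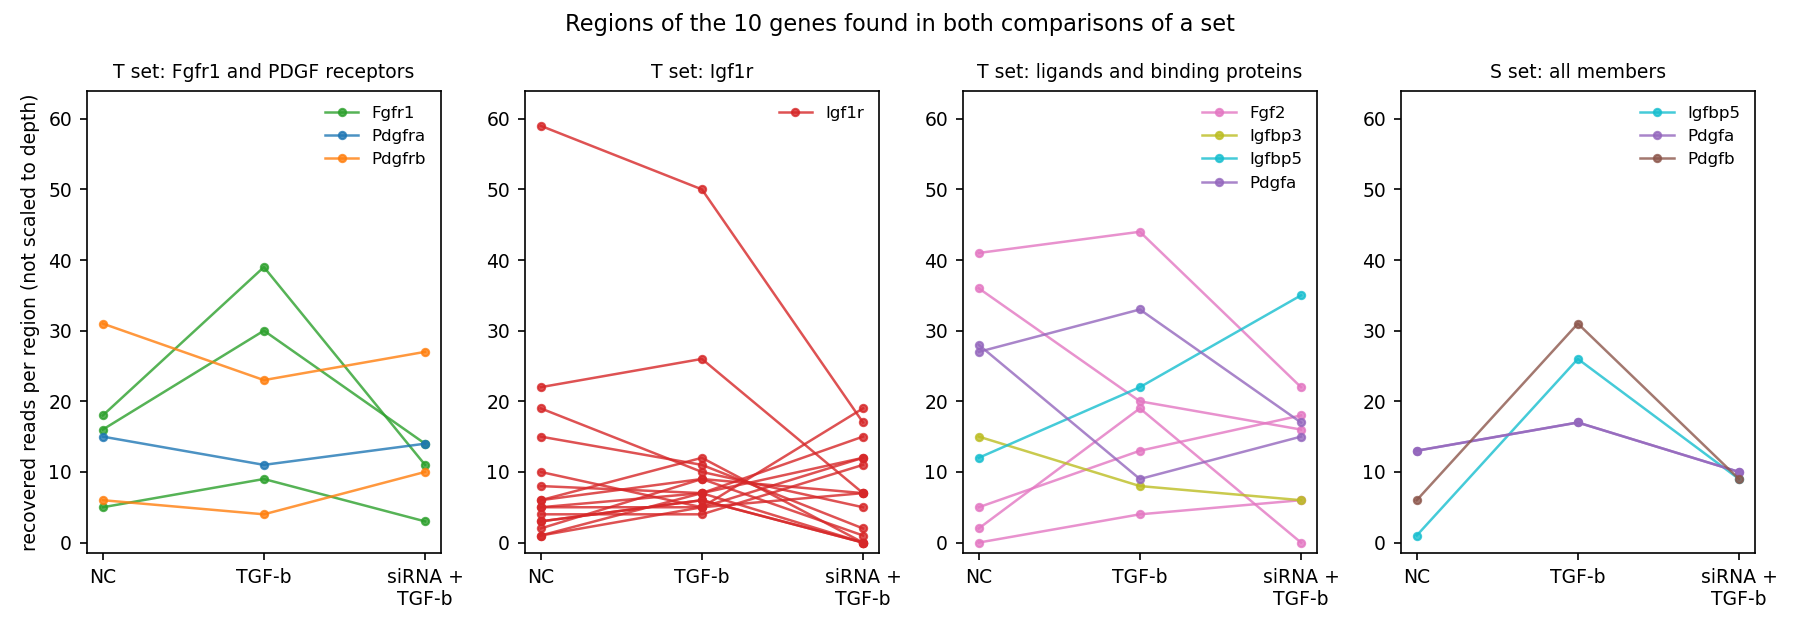
Recovered reads in the NC, TGF-b and siRNA with TGF-b libraries, not scaled to depth, for each member region that stands in both tables of a set, 1 line per region. Fgfr1 peaks in TGF-b at 39 reads, the deepest Igf1r line ends at 17 reads with the siRNA, and in the S set Igfbp5 and Pdgfb go from 1 and 6 reads to 26 and 31 and back to 9.

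A list of 64 further genes of the same systems, ligands, receptors, carriers, adaptors and kinases and feedback inhibitors, had shares near the background in the T set. Of its 325 regions in the first T comparison 44 (13.5%) were at least 2-fold higher and 129 (39.7%) lower, against the 17.3% and 42.1% given above. In the second, 137 of 298 (46.0%) were higher and 44 (14.8%) lower, against 49.7% and 16.2%. Of S set regions, 14 of 52 (26.9%) were higher and 15 (28.8%) lower in TGF-b, against 17.4% and 26.7%, and 16 of 67 (23.9%) higher and 14 (20.9%) lower with the siRNA, against 15.1% and 27.8%. The values that follow are those of the 5 genes with the most reads in a region within 3 kb of a start in each comparison. In the first T comparison 1 of the 5 intervals lay above 0, and relative to all regions 4 did. The first was Stat3, a transcription factor activated below growth factor and cytokine receptors, with 29 NC and 81 TGF-b reads and a ratio of 1.42 (0.85 to 2.06). The others were Sh2b3 (57 and 73 reads, 0.30), Dusp6, a phosphatase that limits ERK (30 and 46, 0.60), Map2k1 (31 and 40, 0.36) and the adaptor Shc1 (40 and 34, -0.23), of which Shc1 had an interval that included 0 under both scalings. With the siRNA the 5 ratios, of Sh2b3, Stat3, Shc1, Map2k2 and Dusp6, ran from -0.55 to 0.12, and all 5 intervals included 0. Relative to the shifted median of 0.97 all 5 lay below 0. In the first S comparison 2 of 5 intervals lay above 0, and 3 when centred, with Stat3 added at 1.09 (0.02 to 2.41). They were those of Igf2, the other IGF ligand, with 7 and 31 reads and a ratio of 1.44 (0.43 to 2.74), and of Grb2, the adaptor that links these receptors to RAS, with 5 and 24 reads and a ratio of 1.49 (0.35 to 3.03). Irs1 (16 and 27 reads, 0.17), Stat3 (7 and 21, 0.89) and Igf2r (7 and 18, 0.68) had intervals that included 0 as deposited. With the siRNA the 5 ratios of the S set, of Irs1, Igf2, Stat3, Cbl and Grb2, ran from -0.78 to 0.40, and all 5 intervals included 0 under both scalings.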

How the data were processed

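The libraries were 6 CUT&Tag libraries, 1 per group. According to the methods of the study, the authors used Bowtie2 and GRCm39 before calling peaks, whereas the submitters' processing notes name BWA 0.7.12 and mm10. The coordinates follow GRCm39, and the reference used here was GRCm38, so no sequence was read by coordinates. Each of 4 deposited tables holds a normalized read density per region, a signal the authors derived from reads in a 2 kb window plus 1 read and rescaled along a line so that shared peaks centre on 0. Tables were scaled separately, and densities are not per library size. The tables also hold the authors' M values, fold changes and p-values, which were not used.

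The line was undone, which gave whole reads within 0.1 read in all member regions, and the calculation was tested on simulated data. The ratio is log2 of the later over the earlier density. Its 95% interval is the Wilson interval of the later library's share of reads (Python 3.11.15, scipy 1.17.1). It covers counting error only, and reads without molecular identifiers are not independent molecules. Regions of 0 reads were set to 3 reads for bounds. Every region of the 10 genes is counted, and those named are mostly each gene's promoter region (highest mean density within 3 kb of a TSS, else the nearest), its deepest region, the largest changes past 2-fold with an interval off 0, and, chosen after their values were seen, others in both tables of a set or beside these. The members and lists were chosen with earlier results of these data known. Alternatives were no line, centring on the median of all regions, at least 10 reads, a promoter limit of 1 kb instead of 3 kb, and an overlap of 50%.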

Additional observations from a re-analysis of the deposited data

Results flagged for a closer look

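At 2 sites the siRNA step went opposite ways in the T and S sets, with both counting intervals off 0. In the intron 2 region of Igf1r the log2 ratio of the siRNA over TGF-b was -1.03 (-1.87 to -0.30) in the T set and 1.49 (0.47 to 2.73) in the S set, a difference of -2.52. In the intron 1 region of Igfbp5 it was 1.12 (0.38 to 1.90) in the T set and -1.36 (-2.53 to -0.39) in the S set, a difference of 2.48. Relative to the median of all regions the Igfbp5 ratios were 0.15 (-0.59 to 0.93) and -1.15 (-2.31 to -0.18), so the T set interval then included 0, and the difference was 1.30. The Igf1r ratios were then -2.00 (-2.84 to -1.27) and 1.71 (0.68 to 2.95). The T region of Igf1r stands in the table through TGF-b alone and its S region through the siRNA library alone, and the S region of Igfbp5 through TGF-b alone, so each of these 3 signs is that of the library in which the region was called. The T region of Igfbp5 was called in both. With 1 library per group the difference was not tested. The sets differ in the siRNA label as well as in the letter, and these cannot be told apart.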

How the results depend on the processing

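No paired analysis was possible because each group holds 1 library. When the median of all regions was set to 0 in each comparison, the T set median in TGF-b was 0.40, with 30.0% of member regions higher and 17.1% lower (all regions, 26.7% and 27.2%), and with the siRNA it was -0.12, which reverses its sign, with 24.3% higher and 28.4% lower (29.2% and 28.9%). Without the line of the authors the T set median with the siRNA was 0.38 and the higher share 32.4% (0.51 and 41.6%). With at least 10 reads in 1 of the 2 libraries the lower share of the S set in TGF-b was 20% (21.9%). Without Igf1r, an alternative chosen after seeing the data, the lower share of the T set with the siRNA was 5.41% (16.2%) and the higher share of the S set with the siRNA 11.1% (15.1%). The Igfbp5 region nearest its start with the siRNA in the T set changed from 0.84 to -0.13 when centred. Neither Igf1r region taken as promoter with the siRNA in the T set lay near the start of the longest transcript, at 67602575. The Igf1r value changed from 2.52, at 67857915, to -1.55, at 67844147, when promoters were held to 1 kb, as another region was then taken. For the same reason the Fgfr1 value with the siRNA changed from -0.58 to 0.65 at 1 kb, and centred it was -1.55. The cause of the other changes was not tested. Setting reads of 3 or fewer to 3 and, added after seeing the data, 1 region per 2 kb moved none of these shares and medians beyond its interval. With each of these, however, the T set values of all regions in TGF-b lay inside the members' intervals. They were 28.5% lower and a median of -0.39 with the first, and 42.3% and -0.65 with the second. The same held without Igf1r, at 42.1% and -0.65. An overlap of 50% changed none of the counts of joined or overlapping regions. Depth limits the single regions, of which many hold fewer than 10 reads.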
